A study of Mus musculus with 12 samples.

Results

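The genes described here are 10 leukocyte adhesion molecules and integrins, chosen by name: the ligands Icam1, Icam2 and Vcam1, the integrin alpha chains Itgal, Itgam, Itgax and Itga4, the integrin beta chains Itgb1 and Itgb2, and the selectin ligand Selplg. All 10 were measured, each by a probe set of its own, among 19938 genes in all.

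Transcripts were measured on 12 microarrays of peritoneal macrophages elicited with thioglycollate, an irritant that draws leukocytes into the peritoneal cavity, from C57BL/6 mice. The donors had eaten a high-fat diet (HFD) or chow for 12 weeks from 6 weeks of age, and both kinds of macrophage were cultured with red blood cells (RBC) of high-fat-fed mice, with RBC of chow-fed mice, or without RBC. They are called high-fat and chow macrophages below. Each of the 6 combinations had 2 arrays, which the labels number as animals. No genotype other than the strain is named in the labels. Nothing in the labels says that RBC were free of white cells or platelets.

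Adhesion molecules of the immunoglobulin superfamily sit on the surface of cells and are bound by integrins, paired alpha and beta chains on the cell opposite. The Itgb2 chain joins Itgal to bind Icam1 and Icam2, and joins Itgam or Itgax to form complement receptors of phagocytes. The Itgb1 chain joins Itga4 to bind Vcam1. Selplg carries the sugars that selectins bind when leukocytes roll on vessel walls. In macrophages Icam1 and Vcam1 are known as genes that inflammatory signals induce through NF-kB, Itgam and Itgb2 are abundant lineage genes, and Itgax is a marker often used for macrophages of fat tissue in obesity.

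The promoters of 5 of the 10 genes were matched in RefSeq (GRCm38.p6, 250 bases before to 50 after the annotated start): Icam1, Itga4, Itgam, Itgax and Itgb1. The following 3 of these are shown: Icam1 and Itga4 were lower in chow macrophages given RBC, and Itgax was higher in high-fat macrophages. Vcam1, also lower in chow macrophages given RBC, had no matched promoter, and the Itga4 calls depended on single arrays. The 3 windows lie at chr9:21015690-21015989 for Icam1, chr2:79255176-79255475 for Itga4 and chr7:128129300-128129599 for Itgax, all on the plus strand, and read 5′ to 3′ with motif matches in capitals:
Icam1: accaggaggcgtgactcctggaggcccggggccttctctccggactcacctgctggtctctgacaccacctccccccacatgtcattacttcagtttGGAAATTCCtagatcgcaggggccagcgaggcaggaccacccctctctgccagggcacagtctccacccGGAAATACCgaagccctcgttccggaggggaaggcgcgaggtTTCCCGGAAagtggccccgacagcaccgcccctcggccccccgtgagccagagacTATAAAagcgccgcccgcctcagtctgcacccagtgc
Itga4: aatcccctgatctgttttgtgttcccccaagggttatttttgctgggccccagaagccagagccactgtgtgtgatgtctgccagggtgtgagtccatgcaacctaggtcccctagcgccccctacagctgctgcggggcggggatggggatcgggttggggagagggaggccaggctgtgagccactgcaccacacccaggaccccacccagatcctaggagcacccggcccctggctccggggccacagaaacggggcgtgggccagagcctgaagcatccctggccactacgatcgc
Itgax: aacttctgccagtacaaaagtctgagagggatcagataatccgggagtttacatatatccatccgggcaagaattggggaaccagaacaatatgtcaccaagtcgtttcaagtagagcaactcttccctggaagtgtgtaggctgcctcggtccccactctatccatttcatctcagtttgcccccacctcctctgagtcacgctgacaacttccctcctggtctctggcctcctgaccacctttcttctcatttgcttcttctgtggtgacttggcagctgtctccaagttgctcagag
The motifs searched on both strands were GGNNNTTCC (a kappaB-like sequence), GAGGAA (the core bound by the myeloid factor PU.1), TTCNNNGAA (the STAT-binding GAS-like sequence) and TATAAA. No matches of different motifs overlapped in the windows shown. The Icam1 window held the kappaB-like sequence at 2 places: GGAAATTCC begins at base 98 of the window and matches on both strands, and GGAAATACC begins at base 167 and matches on the minus strand. It also held TTCCCGGAA at base 209 and TATAAA at base 264, after the annotated start. None of the 4 motifs was found in the Itga4 or the Itgax window. Of all 32851 promoter windows of that length, 18.5% held the kappaB-like sequence, 28.3% GAGGAA, 8.3% the GAS-like sequence and 13.6% TATAAA. Of the windows that are not shown, Itgam held 3 matches of GAGGAA, and Itgb1 held 1 match of GAGGAA and the kappaB-like GGGCTTTCC. Itgam and Itgax are neighbours on chromosome 7, as are Icam1 and Icam4 on chromosome 9, by the order of protein-coding genes in RefSeq.

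Values are the deposited log2 signals, on which a difference of 1 is a doubling, and each group is given by its array 1 and then its array 2. Differences are estimates ± SE from limma, fitted to all 12 arrays, and a gene counts as called where its Benjamini-Hochberg adjusted p, taken over all 19938 genes, is below 0.05. Where the arrays of compared groups are said to lie apart or not to overlap, this is a description only. With 2 arrays a group it happens often without a difference, and its share over all genes was not counted. Itgal in high-fat macrophages given high-fat RBC lay apart at an unadjusted limma p of 0.455. The arrays had median signals of 4.84 to 4.96. The median SD between the 2 arrays of a group, over all genes, was 0.11 in high-fat macrophages without RBC and 0.06 to 0.08 in the other groups. The macrophage genes Cd68 (group means 12.11 to 12.18) and Lyz2 (12.34 to 12.43) were near the top of all genes on every array. Some markers of blood cells were higher in exposed cultures, and their source was not tested. S100a9, known from neutrophils, was higher with RBC by 5.36 and 5.13 in chow macrophages (high-fat RBC, chow RBC) and by 6.72 and 5.84 in high-fat macrophages. Not every neutrophil gene followed: Ly6g had group means of 2.84 to 3.49 over all 6 groups. Sex-linked transcripts split the arrays by macrophage diet, although the labels give no sex: Xist lay at 3.22 to 4.14 on the 6 high-fat macrophage arrays and at 9.07 to 9.44 on the 6 chow macrophage arrays, and the Y-linked Eif2s3y at 7.38 to 7.72 and at 2.76 to 3.42. Effects of macrophage diet and of whatever sets these sex-linked transcripts therefore cannot be told apart in any result that sets high-fat against chow macrophages. No member lies on X or Y.

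**Figure D1:**
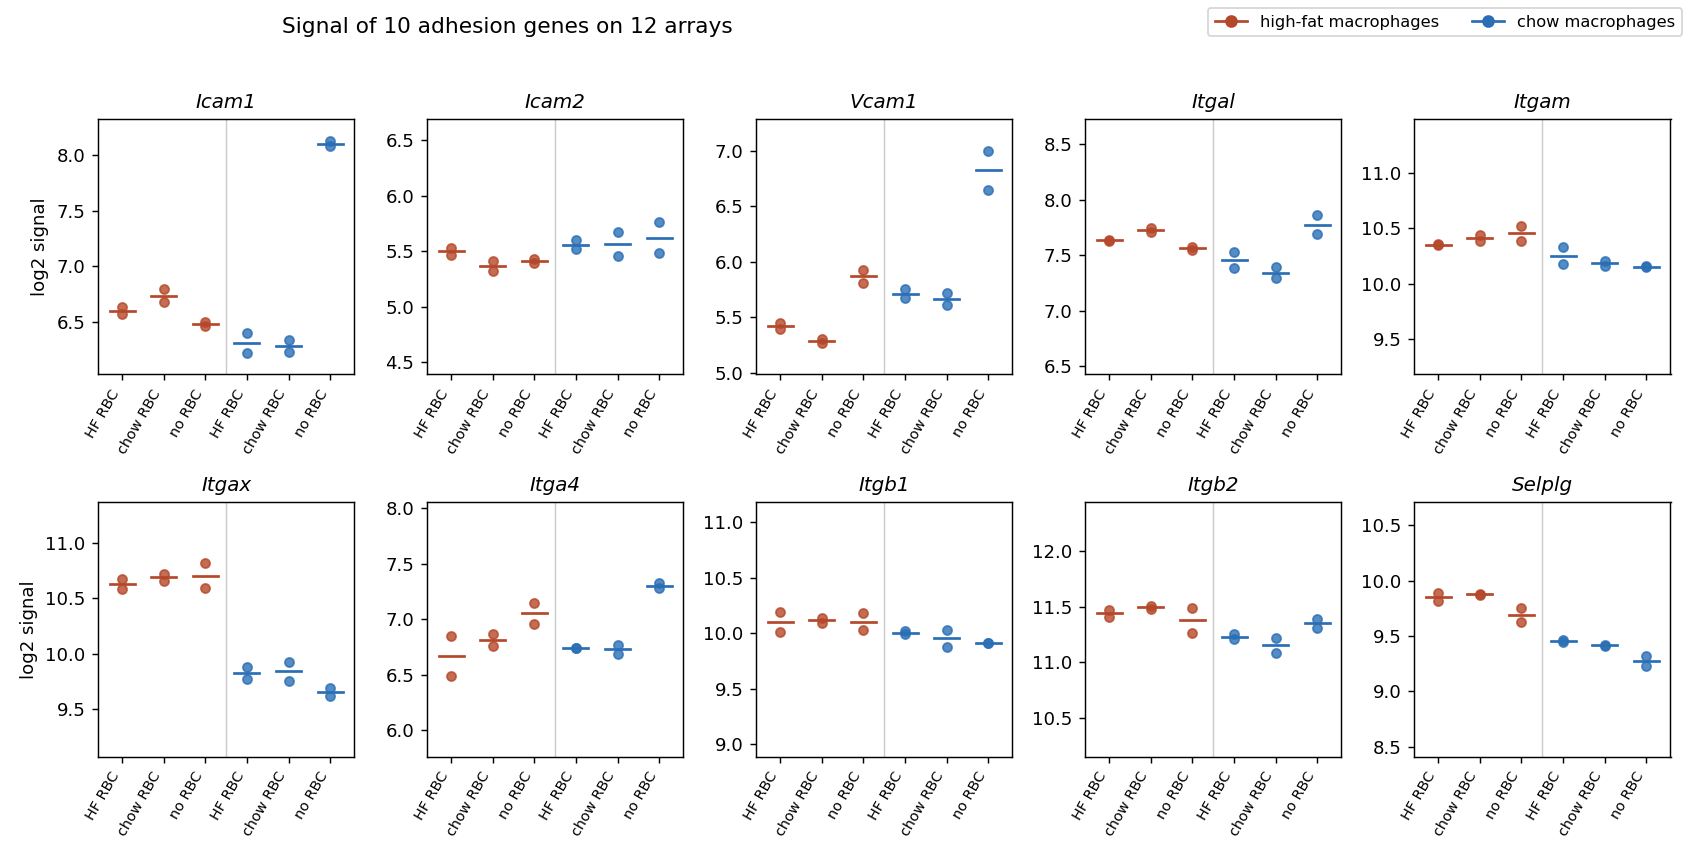
Log2 signal of each of the 10 genes on every array (vertical axes, one panel per gene), by macrophage diet and RBC given on the horizontal axis, where HF stands for high-fat. Points are single arrays and lines are group means of 2 arrays. Icam1 and Vcam1 stand highest in chow macrophages without RBC, and Itgax is higher in all 3 groups of high-fat macrophages.

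What RBC did to these genes in chow macrophages was asked by setting each exposed pair of arrays against the pair without RBC. Icam1 and Vcam1, the inducible ligands, and Itga4, which encodes the alpha chain of a Vcam1 receptor, fell with RBC of either diet, and Itgal fell with chow RBC. No member rose. With high-fat RBC 3 of 10 were called, all lower, where 8.34% of all genes were called (2.93% lower and 5.41% higher). With chow RBC 4 of 10 were called, all lower, where 9.18% of all genes were called (2.94% lower and 6.23% higher). The median difference of the 10 genes was -0.09 with high-fat RBC and -0.13 with chow RBC, against -0.03 and -0.02 over all genes. Both comparisons use the same 2 arrays without RBC.

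Icam1, the ligand of the Itgb2 integrins that inflammatory signals induce, gave the largest response of the 10. In chow macrophages it stood at 6.22 and 6.40 with high-fat RBC, at 6.23 and 6.33 with chow RBC, and at 8.08 and 8.13 without RBC. Both arrays without RBC lay far above every exposed array. The difference was -1.80 ± 0.10 with high-fat RBC (3.48-fold lower, limma adjusted p = 9.74e-08) and -1.83 ± 0.10 with chow RBC (3.56-fold lower, adjusted p = 1.14e-07). The 95% intervals ran from -2.01 to -1.58 and from -2.04 to -1.62.

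Vcam1, the ligand of the Itga4 integrin, stood at 5.75 and 5.67 with high-fat RBC, at 5.61 and 5.72 with chow RBC, and at 7.0 and 6.65 without RBC. Again the unexposed arrays were the 2 highest and did not overlap the exposed ones. The difference was -1.12 ± 0.12 with high-fat RBC (limma adjusted p = 3.89e-05) and -1.16 ± 0.12 with chow RBC (adjusted p = 2.62e-05). Icam2, a ligand of Itgal known for constant rather than induced expression on endothelium, behaved otherwise: it had 5.60 and 5.52 with high-fat RBC, 5.46 and 5.67 with chow RBC, and 5.48 and 5.76 without RBC, all overlapping, and was not called. Its signals over all 12 arrays spanned 0.45. Icam2 (group means 5.36 to 5.62) and Vcam1 in exposed cultures (5.29 to 5.71) lay close to some genes known from other cells. The T cell gene Cd3e had group means of 4.90 to 5.19 and the neutrophil gene Mpo of 4.80 to 5.30. Other genes of the same lists lay well below: the T cell gene Cd3g at 3.54 to 3.77 and the neutrophil gene Ltf at 3.37 to 3.60. Whether a floor of the signal limited the differences of Icam2 and Vcam1 was not tested.

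Among the alpha chains, Itga4 had 6.74 and 6.74 with high-fat RBC, 6.69 and 6.77 with chow RBC, and 7.33 and 7.28 without RBC. The groups did not overlap, and the difference was -0.56 ± 0.12 with high-fat RBC (1.48-fold lower, limma adjusted p = 0.00919) and -0.57 ± 0.12 with chow RBC (1.49-fold lower, adjusted p = 0.00749). The call with high-fat RBC was lost without either array of that group (adjusted p = 0.0682 without array 1 and 0.071 without array 2) and without either unexposed chow macrophage array (0.0615 and 0.0539). The call with chow RBC was lost without array 1 of that group (0.0671) and without array 1 of the unexposed group (0.052).

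Itgal, whose product pairs with the Itgb2 chain on lymphocytes and other leukocytes, had 7.53 and 7.38 with high-fat RBC, 7.39 and 7.29 with chow RBC, and 7.69 and 7.86 without RBC. The exposed arrays all lay below the unexposed ones. Its difference was -0.43 ± 0.10 with chow RBC (limma adjusted p = 0.0145) and -0.32 ± 0.10 with high-fat RBC (adjusted p = 0.0676, not called). The call with chow RBC was lost without array 2 of that group (adjusted p = 0.0937) or without array 2 of the unexposed group (0.167). With high-fat RBC Itgal was called under 4 of the alternatives that kept all arrays, with adjusted p of 0.0292 to 0.0453.

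The remaining integrin chains and Selplg were not called in chow macrophages given RBC. Itgam had 10.33 and 10.18 with high-fat RBC, 10.21 and 10.16 with chow RBC, and 10.15 and 10.16 without RBC. Itgb1, the partner chain of Itga4, had 10.02 and 9.99, 10.03 and 9.88, and 9.91 and 9.91 in the same order. For both genes the arrays given high-fat RBC lay above the unexposed ones, those given chow RBC overlapped them, and neither gene passed the test. Itgb2, the beta chain shared by the leukocyte integrins, had 11.25 and 11.21 with high-fat RBC, 11.22 and 11.08 with chow RBC, and 11.31 and 11.39 without RBC, with the exposed arrays the lower ones. Itgax was at 0.18 ± 0.11 with high-fat RBC and 0.19 ± 0.11 with chow RBC, and Selplg at 0.18 ± 0.09 and 0.14 ± 0.09. The exposed arrays of both genes lay above the unexposed ones. The differences that were not called ran from -0.32 to 0.18 with high-fat RBC and from -0.20 to 0.19 with chow RBC, and their 95% intervals reached from -0.53 to 0.41 and from -0.42 to 0.42.

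Markers of other cells moved with these exposures. Of 13 neutrophil genes 5 rose and 1 fell (Mmp9, at -0.72 with high-fat RBC and -0.75 with chow RBC) with either kind of RBC, while Ly6g, a defining marker, had group means of 3.06 and 2.84, against 3.09 without RBC. Of 7 platelet genes 3 rose with high-fat RBC and 4 with chow RBC. Of 9 measured B cell genes 5 fell with high-fat RBC and 3 with chow RBC. The log2 of their summed signal was 7.73 to 7.74 with high-fat RBC, 7.88 to 8.03 with chow RBC, and 8.26 to 8.50 without RBC. Of 10 mesothelial and fibroblast genes 3 rose with either kind, Wt1 by 0.40 and 0.53, Col1a1 by 0.68 and 0.61 and Col1a2 by 0.87 and 0.74. The log2 of their summed signal was 10.09 to 10.17 with high-fat RBC, 10.07 to 10.13 with chow RBC, and 9.67 to 9.70 without RBC. Of 8 measured macrophage markers, Itgam included, 1 rose (the efferocytosis receptor Mertk, by 0.74 and 0.59) and 2 fell, Adgre1 at -0.67 and -0.68 among them, with list medians of 0.07 and 0.02. Fewer cells of a type and less RNA per cell cannot be told apart in these bulk cultures, and the part of any of these markers in the member results was not tested. By limma 0 of 9 T and NK cell genes and 0 of 8 endothelial genes were called, with 1 and 3 at an unadjusted p below 0.05 with high-fat RBC and 2 and 2 with chow RBC. Endothelium is known for Vcam1 and Icam2. The log2 summed signal of its 8 genes was 7.79 to 7.80 with high-fat RBC, 7.75 to 7.82 with chow RBC, and 7.92 to 8.0 without RBC, and over all 6 groups Cdh5 had means of 4.62 to 5.02 and Vwf of 6.03 to 6.98.

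In high-fat macrophages the same question gave a different picture. Only Vcam1 was called, and only with chow RBC. Small p-values were fewer here over all genes, so the same adjusted threshold asked for a smaller unadjusted p than in chow macrophages. Of the 10 genes 1 fell and 0 rose with chow RBC, where 0.647% of all genes were called (0.0903% lower and 0.557% higher). With high-fat RBC 0 of 10 were called (2 at an unadjusted p below 0.05), where 0.752% of all genes were called (0.105% lower and 0.647% higher). The median of the members was 0.03 with high-fat RBC and 0.00 with chow RBC, against 0.00 and -0.01 over all genes. These comparisons too share their 2 arrays without RBC.

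Vcam1 had 5.39 and 5.45 with high-fat RBC, 5.27 and 5.30 with chow RBC, and 5.93 and 5.81 without RBC. Both unexposed arrays lay above all 4 exposed ones. The difference was -0.45 ± 0.12 with high-fat RBC (limma adjusted p = 0.13, not called) and -0.59 ± 0.12 with chow RBC (1.5-fold lower, adjusted p = 0.035). The call with chow RBC was fragile: it was lost without array 1 or 2 of that group (adjusted p = 0.271 and 0.197), without array 1 of the unexposed high-fat macrophages (0.238), without either chow macrophage array given chow RBC (0.0541 each), without either chow macrophage array given high-fat RBC (0.0623 each), with array weights (0.102) and in a fit to the compared arrays only (0.149).

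Icam1 in high-fat macrophages had 6.63 and 6.57 with high-fat RBC, 6.68 and 6.79 with chow RBC, and 6.50 and 6.46 without RBC. The exposed arrays were the higher ones here, by 0.12 ± 0.10 with high-fat RBC and by 0.26 ± 0.10 with chow RBC (limma adjusted p = 0.801 and 0.403, not called). Itga4 had 6.85 and 6.49 with high-fat RBC, 6.76 and 6.87 with chow RBC, and 7.15 and 6.96 without RBC, and its differences were -0.38 ± 0.12 (adjusted p = 0.274) and -0.24 ± 0.12 (adjusted p = 0.544). Itgal had 7.64 and 7.63 with high-fat RBC, 7.74 and 7.71 with chow RBC, and 7.57 and 7.55 without RBC. Its exposed arrays were the higher ones, and it was not called.

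Icam2 in high-fat macrophages had 5.47 and 5.53 with high-fat RBC, 5.32 and 5.41 with chow RBC, and 5.43 and 5.39 without RBC. Itgb1 had 10.01 and 10.19, 10.09 and 10.14, and 10.03 and 10.18 in the same order, and Itgb2 had 11.41 and 11.47, 11.48 and 11.51, and 11.26 and 11.49. Exposed and unexposed arrays overlapped in Itgb1 and Itgb2 with either kind of RBC, and none of the 3 genes was called. Itgam was at -0.10 ± 0.10 with high-fat RBC and -0.04 ± 0.10 with chow RBC, Itgax at -0.08 ± 0.11 and -0.01 ± 0.11, and Selplg at 0.16 ± 0.09 and 0.18 ± 0.09, and these too were not called (limma adjusted p of 0.559 or more). Of 13 neutrophil genes 5 rose with high-fat RBC and 4 with chow RBC, while Ly6g had means of 3.49 and 3.11, against 3.12 unexposed. Of 7 platelet genes 3 and 4 rose. Of 8 macrophage markers 2 rose with either kind, Cd14 by 1.52 and 1.31 and Fcgr1 by 0.82 and 0.86. In these lists 0 fell, and of 9 B cell genes 0 were called. The part of these markers in the member results was not tested.

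**Figure D2:**
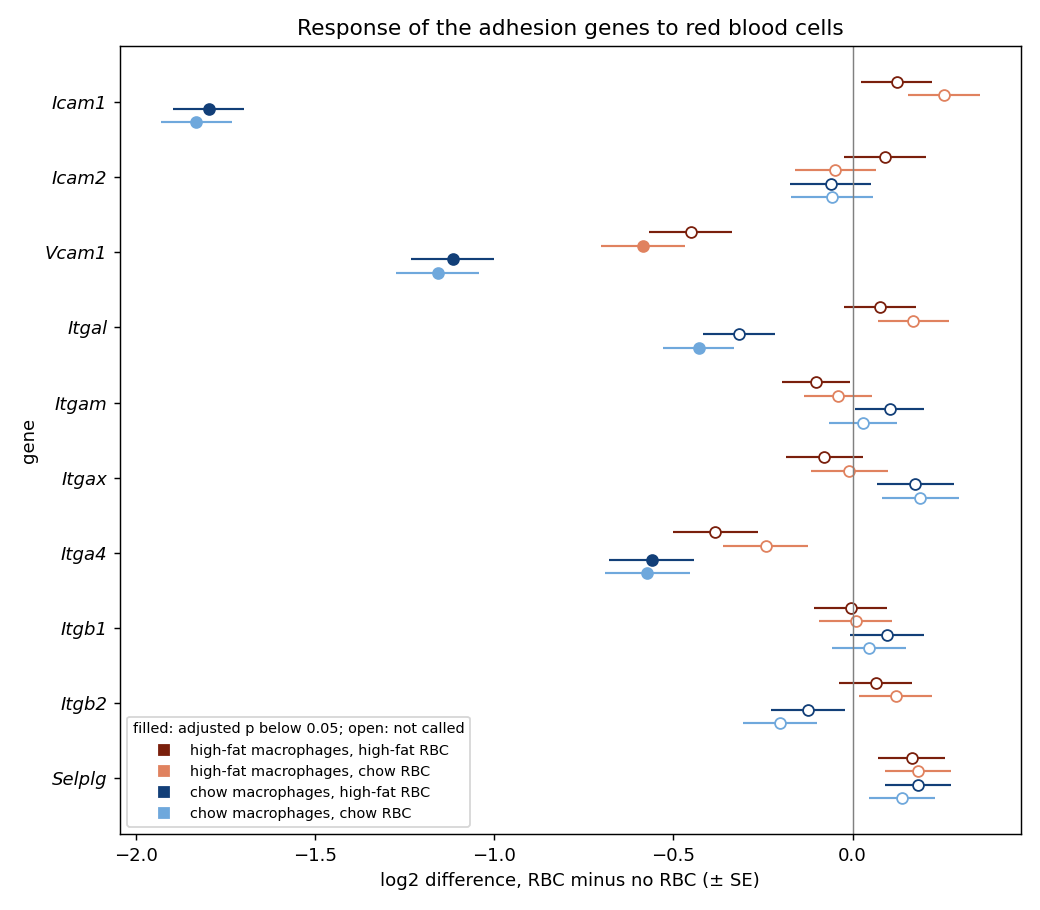
Log2 difference with RBC against no RBC for each gene (vertical axis: gene; horizontal axis: log2 difference), in high-fat and in chow macrophages, with bars for 1 SE on each side from limma and filled symbols for an adjusted p below 0.05. Icam1 stands at -1.80 and -1.83 in chow macrophages and at 0.12 and 0.26 in high-fat macrophages, while Icam2, Itgam, Itgb1 and Itgb2 stay between -0.20 and 0.12 throughout.

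The interaction test asked whether macrophage diet altered the response to RBC, as the mean response to both kinds of RBC in high-fat macrophages minus that in chow macrophages. Icam1, Vcam1 and Itgal differed, all with a more positive value in high-fat macrophages: 3 of 10 members were called higher and 0 lower, where 5.67% of all genes were called (2.57% higher and 3.1% lower). The median of the members was 0.17, against 0.02 over all genes. The difference in response was 2.00 ± 0.12 for Icam1 (95% interval 1.74 to 2.26, limma adjusted p = 3.51e-07), 0.62 ± 0.14 for Vcam1 (adjusted p = 0.02) and 0.50 ± 0.12 for Itgal (adjusted p = 0.0284). For Itga4 it was 0.25 ± 0.15 (adjusted p = 0.401), so a difference in its response between the macrophage diets was not shown. The 7 genes that were not called ran from -0.23 to 0.26. Exposed Vcam1 signals were below the unexposed ones in both kinds of macrophage, and whether a floor limited its interaction was not tested.

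Of these only the Icam1 call was kept in every fit that was tried. The Vcam1 call was lost without array 2 of chow macrophages given high-fat RBC (adjusted p = 0.051), array 1 of unexposed chow macrophages (0.11) or array 2 of unexposed high-fat macrophages (0.0656). The Itgal call was lost with array weights (0.0588). It was also lost on leaving out array 2 of chow macrophages given chow RBC (0.056), given high-fat RBC (0.074) or unexposed (0.178). Among high-fat macrophages it was lost without array 1 or 2 given chow RBC (0.0597 and 0.0555), array 1 given high-fat RBC (0.0529), and array 1 or 2 unexposed (0.0537 and 0.0609). Of the marker lists, 4 of 9 B cell genes, 4 of 8 macrophage genes and 2 of 4 monocyte genes were called higher in this interaction, 3 of 13 neutrophil genes higher and 1 lower, and 4 of 10 mesothelial and fibroblast genes lower. The part of these markers in the interactions was not tested.

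How the macrophage diets differed without RBC was asked on the 4 unexposed arrays, which also enter the interaction. High-fat macrophages had lower Icam1 and Vcam1 and higher Itgax and Selplg. Of the 10 genes 2 were called higher and 2 lower, where 13.9% of all genes were called (8.12% higher and 5.82% lower). The median of the members was -0.10, against -0.01 over all genes.

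Icam1 had 6.50 and 6.46 in high-fat macrophages, against 8.08 and 8.13 in chow macrophages, a difference of -1.63 ± 0.10 (3.1-fold lower, limma adjusted p = 5.96e-08). Vcam1 had 5.93 and 5.81 in high-fat macrophages, against 7.0 and 6.65 in chow macrophages, a difference of -0.96 ± 0.12 (1.94-fold lower, adjusted p = 5.48e-05). Neither pair of arrays overlapped. For both genes unexposed chow macrophages were thus the highest of the 6 groups, with group means of 8.11 for Icam1 and 6.83 for Vcam1. For Icam1 the other 5 means lay between 6.28 and 6.73, and only chow macrophages given high-fat RBC and those given chow RBC overlapped as neighbours in that order. For Vcam1 the order went on with unexposed high-fat macrophages (5.87), chow macrophages with high-fat RBC (5.71) and with chow RBC (5.67), which overlapped, and high-fat macrophages with high-fat RBC (5.42) and with chow RBC (5.29).

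Itgax, the alpha chain of a complement receptor of macrophages and dendritic cells, had 10.59 and 10.82 in unexposed high-fat macrophages, against 9.62 and 9.69 in unexposed chow macrophages. The difference of 1.05 ± 0.11 (2.07-fold higher, 95% interval 0.82 to 1.28, limma adjusted p = 1.16e-05) was the largest rise among the members. Selplg, the ligand of P-selectin, had 9.63 and 9.75 in high-fat macrophages, against 9.23 and 9.32 in chow macrophages, a difference of 0.42 ± 0.09 (adjusted p = 0.00722). The Selplg call was lost without array 1 of unexposed chow macrophages (adjusted p = 0.0656) and in a fit to the compared arrays only (0.0643). Neither gene's arrays overlapped between the diets.

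Itgam, the gene next to Itgax, had 10.39 and 10.52 in high-fat macrophages, against 10.15 and 10.16 in chow macrophages. The arrays did not overlap, and the difference of 0.30 ± 0.10 did not pass (limma adjusted p = 0.0507), though it did under 4 of the alternatives that kept all arrays (0.00846 to 0.0489) and without array 1 of unexposed high-fat macrophages (0.0478). Itgal was at -0.22 ± 0.10 (adjusted p = 0.19) and Itga4 at -0.25 ± 0.12 (adjusted p = 0.208). The 6 genes that were not called ran from -0.25 to 0.30.

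With RBC present, Itgax kept its rise and the lower level of Icam1 was no longer seen. With high-fat RBC 1 of 10 genes was called, higher, where 1.36% of all genes were called (0.461% higher and 0.903% lower). With chow RBC 3 were called, all higher, where 2.47% of all genes were called (0.908% higher and 1.56% lower). The member medians were 0.14 with high-fat RBC and 0.29 with chow RBC, against 0.01 and 0.00 over all genes.

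Itgax had 10.58 and 10.67 in high-fat macrophages, against 9.88 and 9.77 in chow macrophages, when both were given high-fat RBC. With chow RBC it had 10.66 and 10.72 in high-fat macrophages, against 9.93 and 9.75 in chow macrophages. The differences were 0.79 ± 0.11 (limma adjusted p = 0.00113) and 0.85 ± 0.11 (adjusted p = 0.000503). The lowest high-fat macrophage array in any condition (10.58) lay above the highest chow macrophage array (9.93). Within high-fat macrophages the 3 group means (10.62 with high-fat RBC, 10.69 with chow RBC, 10.70 without) overlapped as neighbours, and the Itgax interaction was -0.23 ± 0.13 (adjusted p = 0.414).

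Selplg had 9.82 and 9.89 in high-fat macrophages, against 9.45 and 9.46 in chow macrophages, with high-fat RBC, and 9.88 and 9.87 against 9.41 and 9.42 with chow RBC. No array of the chow macrophages reached the lowest of the high-fat macrophages, in these conditions or without RBC. The difference was 0.46 ± 0.09 with chow RBC (limma adjusted p = 0.0168) and 0.40 ± 0.09 with high-fat RBC (adjusted p = 0.053, not called). The call with chow RBC was lost without any 1 of the 4 arrays compared: arrays 1 and 2 of high-fat macrophages (0.125 and 0.116) and of chow macrophages (0.104 and 0.0857), and with the compared arrays only (0.0586).

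Icam1 with chow RBC was higher in high-fat macrophages (6.68 and 6.79) than in chow macrophages (6.23 and 6.33), by 0.46 ± 0.10 (limma adjusted p = 0.0271). That is the opposite sign to the difference without RBC. It was lost without array 1 or 2 of the high-fat macrophages (adjusted p = 0.0932 and 0.222), without array 1 or 2 of the chow macrophages (0.188 and 0.0777), and with the compared arrays only (0.0772). With high-fat RBC the difference was 0.29 ± 0.10 (adjusted p = 0.271), and Vcam1 was at -0.29 ± 0.12 and -0.38 ± 0.12 (adjusted p = 0.394 with high-fat RBC and 0.121 with chow RBC).

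Itgam had 10.35 and 10.36 in high-fat macrophages, against 10.33 and 10.18 in chow macrophages, with high-fat RBC, and 10.39 and 10.44 against 10.21 and 10.16 with chow RBC. The differences of 0.10 ± 0.10 and 0.23 ± 0.10 were not called. With chow RBC Itgal was at 0.38 ± 0.10 (limma adjusted p = 0.0634) and Itgb2 at 0.35 (adjusted p = 0.115), and neither was called.

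**Figure D3:**
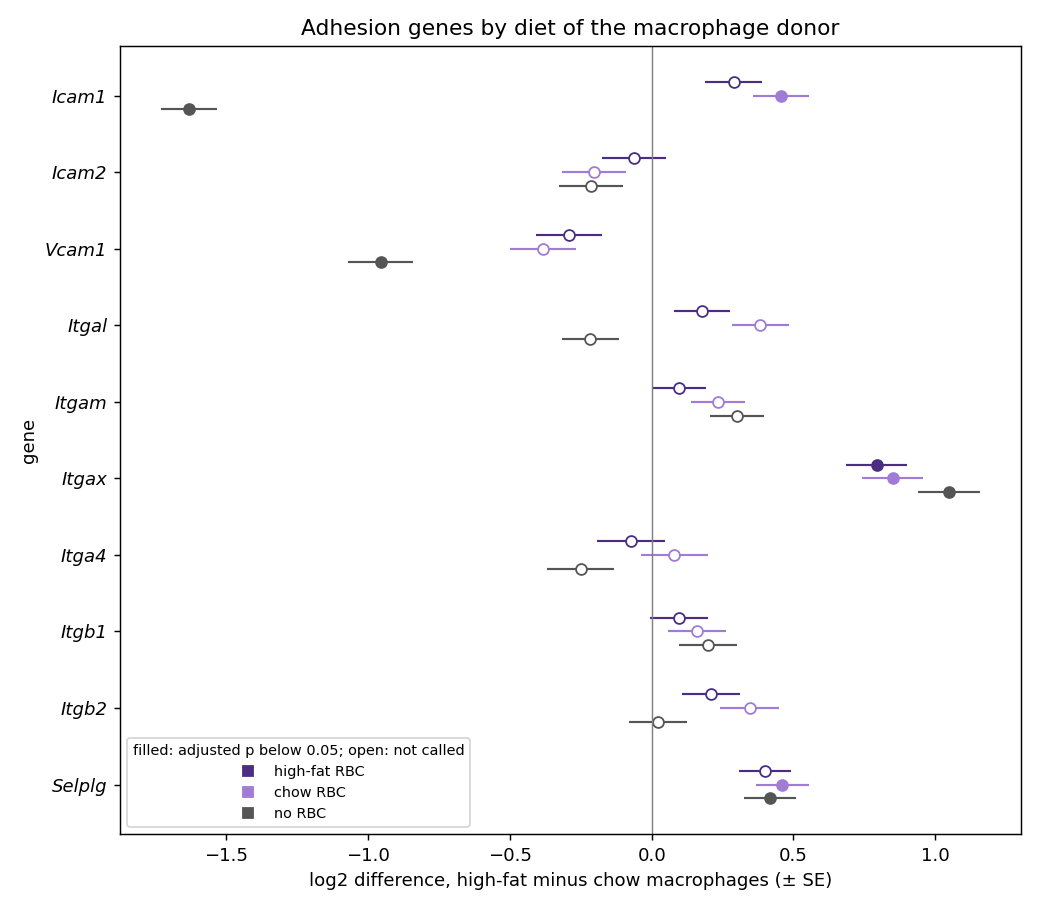
Log2 difference of high-fat minus chow macrophages for each gene under each RBC condition (vertical axis: gene; horizontal axis: log2 difference), with bars for 1 SE on each side from limma and filled symbols for an adjusted p below 0.05. Itgax lies between 0.79 and 1.05 in all 3 conditions, and Icam1 is at -1.63 without RBC and at 0.29 and 0.46 with high-fat and chow RBC.

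Markers of other cells differed between the macrophage diets too. Without RBC 6 of the 9 B cell genes were lower in high-fat macrophages, with a log2 summed signal of 7.25 to 7.42 in high-fat and 8.26 to 8.50 in chow macrophages. The B cell receptor chain Cd79a had group means of 3.47 and 5.66. Of 8 macrophage markers 4 were lower, Adgre1 at -1.17 among them, and 1 was higher, Mertk at 0.51, a call lost without array 2 of unexposed high-fat macrophages (limma adjusted p = 0.068) or array 2 of unexposed chow macrophages (0.0543). Of 4 measured markers of monocyte-derived cells 3 were lower, with a list median of -0.88. Lower calls were also made for 4 of 13 neutrophil and 2 of 7 platelet genes, and 0 were higher in either list. Of 10 mesothelial and fibroblast genes 3 were higher. Of 5 measured eosinophil genes 1 was higher, Siglecf by 0.85, and 1 was lower, Ccr3 at -0.65. Of 8 endothelial genes 1 was higher, Vwf, by 0.61 without RBC, 0.74 with high-fat RBC and 0.94 with chow RBC. Of 7 dendritic cell genes, a cell type that shares Itgax as a marker, 0 were higher and 1 was lower. The part of these markers in the member results was not tested.

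Whether the diet of the RBC donor mattered was asked by setting high-fat RBC against chow RBC. No member was called in either kind of macrophage, on their average, or in the interaction of RBC diet with macrophage diet, and none had an unadjusted p below 0.05 in limma. Over all genes 0%, 0.0251% and 0.01% were called in chow macrophages, in high-fat macrophages and on average, and 0% in the interaction, with 555, 789, 629 and 718 genes at an unadjusted p below 0.05. The member differences ran from -0.01 to 0.11 in chow macrophages, with 95% intervals from -0.25 to 0.33. In high-fat macrophages they ran from -0.14 for Itga4 to 0.14 for Icam2, with intervals from -0.40 to 0.38, and Icam1 was at -0.13, Vcam1 at 0.13 and Itgax at -0.07. Differences within these bounds remain compatible with the data from 2 arrays a group, and the interaction's intervals reached from -0.51 to 0.49.

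Lists of related genes were set beside the members. The shares called over all genes are those given with the member counts of the same comparison. Among 20 other integrin chains, Itga6 (a laminin receptor chain), Itgb3 (a vitronectin receptor chain, also found on platelets) and Itgb5 rose in chow macrophages given RBC, opposite to Itga4 and Itgal. Itga6 rose by 1.2 with high-fat RBC and 1.06 with chow RBC, Itgb3 by 0.85 and 0.95, and Itgb5 by 0.76 and 0.66. Itgb8 was called lower, at -0.42 with each. That makes 3 higher and 1 lower of 20, with list medians of -0.04 and 0.00. In high-fat macrophages limma called 0 of 20 with either kind of RBC, with 5 at an unadjusted p below 0.05 with high-fat RBC and 2 with chow RBC. All 3 risers were also higher in high-fat macrophages than in chow macrophages without RBC, by 1.33 for Itga6, 1.52 for Itgb3 and 1.11 for Itgb5, and their interactions were called at -0.99, -0.80 and -0.75. Omissions of single arrays changed none of these calls except Itgb8, kept in 2 of 12 omissions in each exposure (those of the unexposed high-fat macrophage arrays), and the Itgb3 interaction, lost without array 1 of unexposed chow macrophages (limma adjusted p = 0.0774) or array 2 of unexposed high-fat macrophages (0.0689).

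Of 24 measured genes that activate integrins or link them to actin, 6 rose with high-fat RBC and 5 with chow RBC in chow macrophages, and 0 fell (2 and 1 lower at an unadjusted p below 0.05 in limma). Fermt2, a kindlin that binds integrin beta tails, rose by 1.74 and 1.72, Parva, an actin-binding partner of integrin-linked kinase, by 1.35 and 1.38, and Cytip, known to bind the Itgb2 regulator Cyth1, by 1.94 and 2.25. Cyth1 itself rose by 0.70 and 0.79, a call lost with high-fat RBC without array 2 of that group (limma adjusted p = 0.0689). The list medians were 0.01 and 0.02. In high-fat macrophages 1 of 24 rose with either kind of RBC, Cytip, by 1.08 and 0.97. That call was lost with high-fat RBC without array 2 of that group (0.0645) or array 1 of the unexposed group (0.0533), and with chow RBC without array 1 or 2 of that group (0.0642 and 0.118) or array 1 of the unexposed group (0.119). Without RBC, the high-fat macrophages had higher Fermt2 and Parva, by 1.43 and 1.44, among 5 higher and 3 lower of 24.

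Of the 16 measured selectins and other immunoglobulin-type adhesion genes, in chow macrophages 2 rose and 1 fell with high-fat RBC (F11r, Cd226 and the endothelial-type Jam2, at 0.59, 0.67 and -0.56), and 2 rose and 0 fell with chow RBC (Nectin2 and F11r, at 0.44 and 0.56). Over all genes 8.34% were called in chow macrophages with high-fat RBC and 9.18% with chow RBC. Every one of these calls in chow macrophages given RBC depended on single arrays. With high-fat RBC the F11r call was lost without array 1 or 2 of that group (limma adjusted p = 0.0769 and 0.154) or array 2 of the unexposed group (0.231). The Cd226 call was lost without array 2 with high-fat RBC (0.141) or array 1 or 2 without RBC (0.0616 and 0.0816), and the Jam2 call without array 1 with high-fat RBC (0.0597) or array 2 without RBC (0.0699). With chow RBC the F11r call was lost without array 1 or 2 of that group (0.126 and 0.105) or array 2 of the unexposed group (0.294), and the Nectin2 call without array 1 of either group (0.099 with chow RBC and 0.102 without RBC). Jam2 was lower by 0.71 in unexposed high-fat than in unexposed chow macrophages, a call that every omission kept. In that comparison 2 of 16 were higher (Cd99l2 and Alcam) and 2 lower (Jam2 and Cd44). In high-fat macrophages 1 of 16 rose with chow RBC, Cd226 by 0.74 (limma adjusted p = 0.0348), and 0 were called with high-fat RBC. The Jam2 interaction was called at 0.54 (adjusted p = 0.0248). How far the Cd99l2, Alcam, Cd44, Cd226 and Jam2 interaction calls depend on single arrays is not given here.

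Of 13 measured genes that NF-kB induces, 12 fell with high-fat RBC and 11 with chow RBC in chow macrophages, with list medians of -1.02 and -0.84. In high-fat macrophages 0 fell, and 2 rose with either kind of RBC, the co-regulator Bcl3 and the chemokine Ccl5. There 8 of 13 had an unadjusted p below 0.05 in limma with either kind of RBC, 0 of them lower. Bcl3 rose by 1.14 with high-fat RBC and 1.22 with chow RBC, and Ccl5 by 1.10 and 0.80. The Ccl5 call with chow RBC was lost without array 1 of that group (limma adjusted p = 0.265) or array 1 or 2 of the unexposed group (0.0691 and 0.0537), and Bcl3 was not called in a fit to the compared arrays only (0.0804 with high-fat RBC and 0.0507 with chow RBC). In chow macrophages no such loss occurred for the genes named next. The signalling adaptor Traf1 was at -2.08 and -1.90, and the cytokine Tnf at -1.76 and -1.68. In the interaction 12 of 13 were called higher, with a median of 1.42. In high-fat against chow macrophages without RBC 12 of 13 were lower, with a median of -1.42. The signs are those of Icam1 and Vcam1 in these comparisons, which share their unexposed arrays, with 1 exception. Vcam1 was at -0.45 and -0.59 in high-fat macrophages given RBC, where the list medians were 0.32 and 0.35. With RBC present, high-fat minus chow macrophages gave list medians of -0.12 with high-fat RBC and -0.14 with chow RBC. Icam1 had the other sign there, at 0.29 and 0.46, and Vcam1 the same sign, at -0.29 and -0.38.

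**Figure D4:**
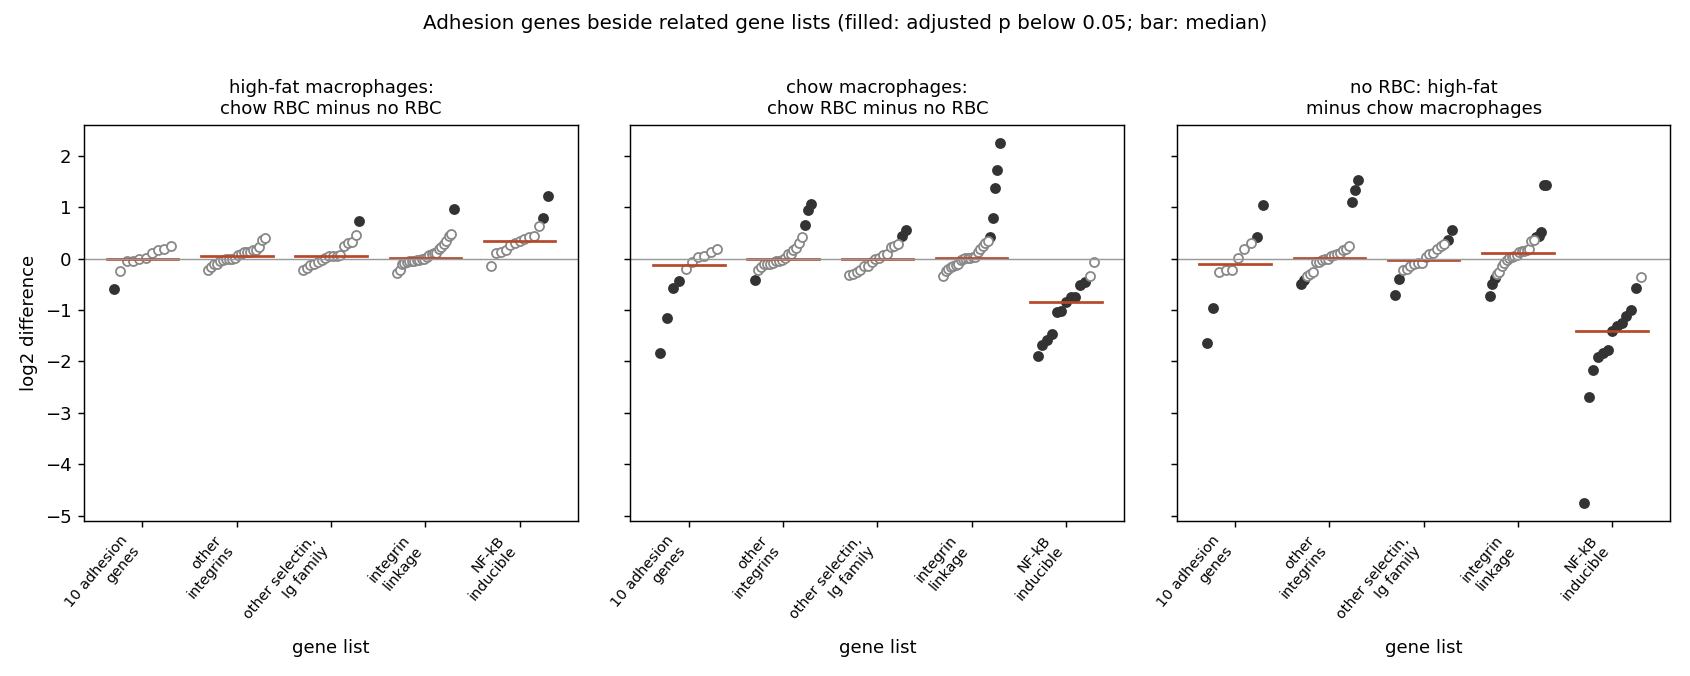
Log2 differences (vertical axis) of every gene of the members and of 4 related lists (horizontal axis) in 3 comparisons: high-fat macrophages with chow RBC against none, chow macrophages with chow RBC against none, and high-fat against chow macrophages without RBC. Points are genes, bars are list medians. The NF-kB-inducible list has medians of 0.35, -0.84 and -1.42, and the medians of the other integrins lie between 0.00 and 0.05.

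The genes whose signals ran most like each member over the 12 arrays are given as a description, since all arrays share the macrophage diet and RBC groups. For Icam1 these were Ralgds, Malt1 and Mcoln2 (Pearson r of 0.986, 0.984 and 0.976), and for Vcam1 Tppp3, Serpinb8 and Arc (0.969, 0.967 and 0.963). For Itgax they were the Y-linked Eif2s3y, Acox3 and ND3 (0.988, 0.983 and 0.981), and for Selplg Msmo1, Slco2a1 and Pianp (0.991, 0.98 and 0.975). That the list of Itgax begins with a Y-linked gene restates the split of the arrays by macrophage diet. Itgam ran most like Myof, Gpd1l and Acox3 (0.966, 0.962 and 0.956), Itgal like Chmp4b, Cd82 and Pitpnm3 (0.933, 0.914 and 0.895), and Itga4 like Zbtb9, Plppr4 and Prss12 (0.943, 0.942 and 0.94). The beta chain Itgb1 ran most like Nptn, Adipor1 and Arhgap25 (0.958, 0.952 and 0.945) and Itgb2 like Insig1, Ext1 and Rilpl2 (0.959, 0.959 and 0.953). Icam2 ran most like Nags, Cnbd2 and Tmem185b (0.933, 0.911 and 0.893).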

How the data were processed

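The values are log2 signals per probe set of an Affymetrix Mouse Gene 1.0 ST array, deposited by the authors for 12 arrays. Their summarization, normalization and genome build are not given in the sources used here. RNA was purified on RNeasy columns and, per the labels' protocols, amplified with a kit made for degraded RNA (WTA-Ovation FFPE V2). With no detection calls in the file, no bound against background can be set, and precision rests on how many arrays there are.

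Of 35557 probe sets 35556 had values. The platform annotation named 21789 by 1 gene symbol, 1621 by several and 12146 by none. Where a gene had several (999 genes), the probe set of highest mean stood for it, which gave 19938 genes, with no filter on low values. Each member had 1 such probe set. Itgam also occurs in 3 probe sets shared with Rpl35 (signals of 11.20 to 11.66), which were not used.

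A model with 1 mean for each of 6 groups was fitted with limma 3.58.1 in R 4.3.3 (lmFit, eBayes; residual df 6, prior df 7.69), and 12 comparisons were tested, with Benjamini-Hochberg adjustment over all genes of each. The procedure was tested on simulated data. Arrays are numbered as animals in the labels, but nothing says that same-numbered arrays come from the same animal. Correlations of the deviations of same-numbered arrays within a macrophage diet were -0.08, -0.06 and 0.34 in high-fat and 0.03, 0.14 and -0.03 in chow macrophages, so the numbers were not taken to pair the arrays. Each group has only 2 arrays, so p-values rest on the spread pooled over groups.

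The naming rule allows all 10 members in every comparison, at most the 4 called genes of smallest p of each related list, and the 3 genes most correlated with each member; marker genes are named beside results. Members and list genes not named in a comparison are covered by its ranges and counts. There were 4 lists of related genes and 11 of cell type markers. The members, lists and tests were chosen with earlier results of these data known. Alternatives were 9 other settings and the omission of each array.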

Additional observations from a re-analysis of the deposited data

Results flagged for a closer look

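The response to RBC differed between macrophage diets, by the interaction test, for 3 of the 10 genes. High-fat minus chow macrophages, the log2 difference in response was 2.00 for Icam1, 0.62 for Vcam1 and 0.50 for Itgal (limma adjusted p = 3.51e-07, 0.02 and 0.0284). All 4 Icam1 arrays with RBC lay above both unexposed ones in high-fat macrophages, where the differences of 0.12 and 0.26 were not called, and below both in chow macrophages, where they were. The Vcam1 arrays with RBC lay below the unexposed ones in both. The Itgal arrays with RBC lay above them in high-fat macrophages, where neither difference was called, and below them in chow macrophages. Macrophage diet cannot be told apart here from the sex-linked split of the arrays. Groups of 2 arrays are too small to test single arrays as outliers, and arrays that lie above or below others are a description only.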

How the results depend on the processing

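Of 32 member values followed across the alternatives, those called or at an unadjusted p below 0.05, 19 were called as reported, 10 of these were called under every alternative and omission, and 0 changed sign. The 10 are Icam1 and Vcam1 in both exposures of chow macrophages and between the diets without RBC, the Icam1 interaction, and Itgax between the diets in all 3 RBC conditions. Counts of called members moved by more than 1.5 times in 4 comparisons. In high-fat macrophages given chow RBC (1 reported) the count was 0 with array weights and with the compared arrays only, and 0 to 1 on leaving out single arrays. In the interaction with exposure (3) it was 1 to 3 on leaving out single arrays. For high-fat against chow macrophages given chow RBC (3) it was 5 with an intensity trend and robust prior, 1 with the compared arrays only and 1 to 3 on omissions. For the same with high-fat RBC (1) it was 2 with an adjusted p below 0.10, quantile normalization, averaged probe sets, the third of genes with the lowest means removed, the intensity trend or array weights, and 1 to 2 on omissions. The gains are Selplg with high-fat RBC, and Itgal and Itgb2 with chow RBC.

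With a replicate block, fitted across the groups or separately for each macrophage diet, the count of called members moved beyond that limit in no comparison. Over all genes the block gave 2706 and 2979 genes for the diets without RBC, against 2780 as reported, and 1722 and 1949 for chow macrophages given chow RBC, against 1830.

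Counts over all genes moved more, over settings and then over omissions: 1562 to 2872 and 710 to 2142 for chow macrophages with high-fat RBC (1663 reported), 1582 to 2070 and 726 to 2237 with chow RBC (1830), 38 to 195 and 66 to 290 for high-fat macrophages with high-fat RBC (150), 44 to 201 and 54 to 458 with chow RBC (129), 835 to 1344 and 558 to 1115 for the interaction (1131), 1777 to 3165 and 1600 to 2746 for the diets without RBC (2780), 237 to 441 and 121 to 348 with high-fat RBC (272), and 315 to 682 and 181 to 610 with chow RBC (492). High-fat against chow RBC gave 0 to 13 genes in every fit. The smallest counts go with fewer arrays; other causes were not tested.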

Other observations

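Genes known from resident peritoneal macrophages differed between the macrophage diets without RBC, beside Icam2, which is also known on those cells. Of 9 measured, 2 were higher in high-fat macrophages, Gata6 by 0.38 and Vsig4 by 0.54, and 5 were lower: Cxcl13 at -2.38, Prg4 at -1.05, Alox15 at -0.78, Timd4 at -0.67 and F5 at -0.32. Icam2 was at -0.21 in the same comparison and was not called. The Cxcl13, Prg4, Alox15 and Timd4 calls were kept in every fit tried. The Vsig4 call was lost without array 1 or 2 of unexposed high-fat macrophages (limma adjusted p = 0.0703 and 0.0534) or array 2 of unexposed chow macrophages (0.238). The F5 call was lost without array 1 or 2 of unexposed high-fat macrophages (0.0527 and 0.107), of unexposed chow macrophages (0.195 and 0.0643) or of chow macrophages given high-fat RBC (0.0527 each). The Gata6 call was kept only on leaving out either array of high-fat macrophages given high-fat RBC, and its adjusted p reached 0.17 on the other omissions. The list moved in both directions, and whether it reflects the make-up of the cultures was not tested.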
